A study of Homo sapiens with 9 samples.

Results

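The transcript levels described here are those of HEK293 cells that received a control siRNA, measured on 3 of the 9 arrays of a study of the DBIRD complex. HEK293 is a line derived from human embryonic kidney and transformed with adenovirus DNA. All cells were grown in DMEM with serum, antibiotics and glutamine and were transfected with stealth siRNA, so the control cells were transfected too. RNA of 3 independent experiments was taken after 48 h, treated with DNase on the column, depleted of ribosomal RNA and labelled with biotin by an Affymetrix whole-transcript protocol. The members are the 3 arrays whose titles name the control siRNA (siCTR), called arrays 1, 2 and 3 by their replicate number. The 3 siDBC1 and 3 siZNF326 arrays were not used. No group is compared here, so no test was made and no p-value is given.

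DBIRD joins DBC1, whose gene is CCAR2, and ZNF326, a zinc finger protein also called ZIRD, with RNA polymerase II and acts in alternative splicing. A transformed kidney line is often described by how much it keeps of nephron identity, and HEK293 cells are known to carry transcripts that are typical of neurons and of the adrenal gland. Growing cell lines also carry much RNA for glycolysis, translation, protein folding and DNA replication.

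Each level is the mean of log2 values over the 3 arrays. Of 22011 probe sets, 14432 carried exactly 1 gene symbol, and levels were ranked among these, with percentile 100 at the top. They stand for 14232 genes, and a gene with several probe sets takes the one with the highest mean. For the 197 genes with several, the gap between their probe sets had a median of 1.20 log2 and reached 6.57. Arrays 1, 2 and 3 had medians of 5.83, 5.86 and 5.96 over these probe sets, and each pair of arrays had a Pearson correlation of 0.993 across them, over genes that are not independent replicates. The mean levels ran from 0.91 to 12.01 with a median of 5.88. The SD over the 3 arrays had a median of 0.11 and was above 0.5 for 140 probe sets. A probe set's brightness depends on its probes as well as on its transcript, and the values are not per length. The order of genes is therefore approximate, and copies that are nearly identical, as among histones, tubulins and ribosomal proteins, may share signal.

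3 calls describe a gene. It was high when it lay above the upper quartile of each array (6.83, 6.86 and 7.03 in arrays 1 to 3), which held for 3303 genes (23.2%). It was low when it lay below the lower quartile of each array (4.62, 4.63 and 4.64), which held for 3276 genes (23%). Genes for olfactory receptors, the odour sensors of the nose, gave a reading of what little signal looks like. A gene was above the olfactory range when it passed the 95th percentile of 225 such genes on each array (5.12, 4.93 and 4.85), as 9418 genes did (66.2%). This is not a detection call. Of 34 genes for keratin-associated proteins, which build hair, 10 passed it too, and KRTAP5-1 read 7.76, 7.36 and 7.54. Of the 225 olfactory receptors themselves, 194 were low.

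**Figure D1:**
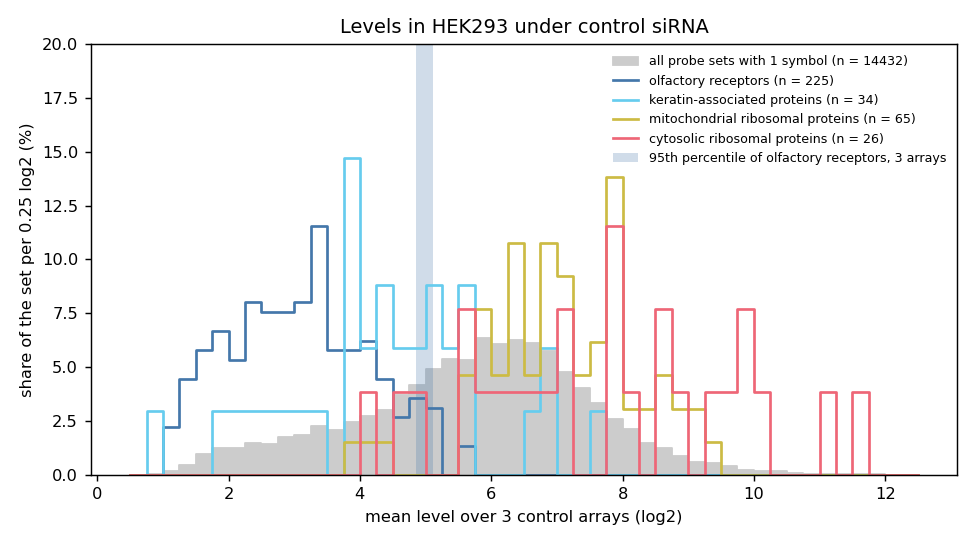
Share of each gene set (y axis, percent per 0.25 log2) by mean level over the 3 control arrays (x axis, log2), for all 14432 probe sets with 1 symbol and 4 families. Olfactory receptors had a median level of 3.08 and cytosolic ribosomal proteins one of 7.86, and the shaded band spans the olfactory limits of the 3 arrays.

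LDHA, the lactate dehydrogenase subunit that turns pyruvate to lactate, ranked 1 of the probe sets with 1 symbol, with 11.94, 12.08 and 12.01 (mean 12.01 ± 0.07 SD, n = 3). H1-4, a linker histone, read 11.76, 11.71 and 11.89 at rank 2, and the glycolytic enzyme ENO1 (enolase) read 11.73, 11.80 and 11.82 at rank 3. LDHA was above H1-4 and ENO1 on every array, while H1-4 and ENO1 overlapped. HSPA8, the constitutive HSP70 chaperone, followed with 11.55, 11.65 and 11.68. RPL18, a protein of the large ribosomal subunit, read 11.57, 11.64 and 11.55, and PA2G4, a growth-related RNA-binding protein, read 11.35, 11.78 and 11.63. These values cross from array to array, so ranks 4 to 6 have no firm order.

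Ranks 7 to 15 went to the core histone gene H2AC16 (11.47, 11.52 and 11.74), the glycolytic kinase PGK1 (11.57, 11.56 and 11.54), UBB, EIF2S3, SSB, ACTG1, HSP90AA1, LDHB and RPL8. UBB encodes ubiquitin, EIF2S3 a subunit of the factor that brings the initiator tRNA, SSB the La protein that binds RNA polymerase III transcripts, and ACTG1 cytoplasmic actin. PGK1 had the smallest SD of the top 25, 0.01. Ranks 16 to 25 were SET, H3C2, ILF2, DAD1, ARF1, C1QBP, NUTF2, H2AC21, EIF3I and HNRNPL, the last at 10.73 ± 0.12. Among them SET is a histone chaperone, DAD1 a subunit of the oligosaccharyltransferase, ARF1 a GTPase of Golgi traffic, NUTF2 an import factor for Ran, and HNRNPL a regulator of splicing. DAD1 had the largest SD of the top 25, 0.23, from 10.70, 11.12 and 11.06. Of the 24 neighbouring pairs in this order 20 overlapped over the arrays. Array 1 gave the lowest value for 18 of the 25.

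**Figure D2:**
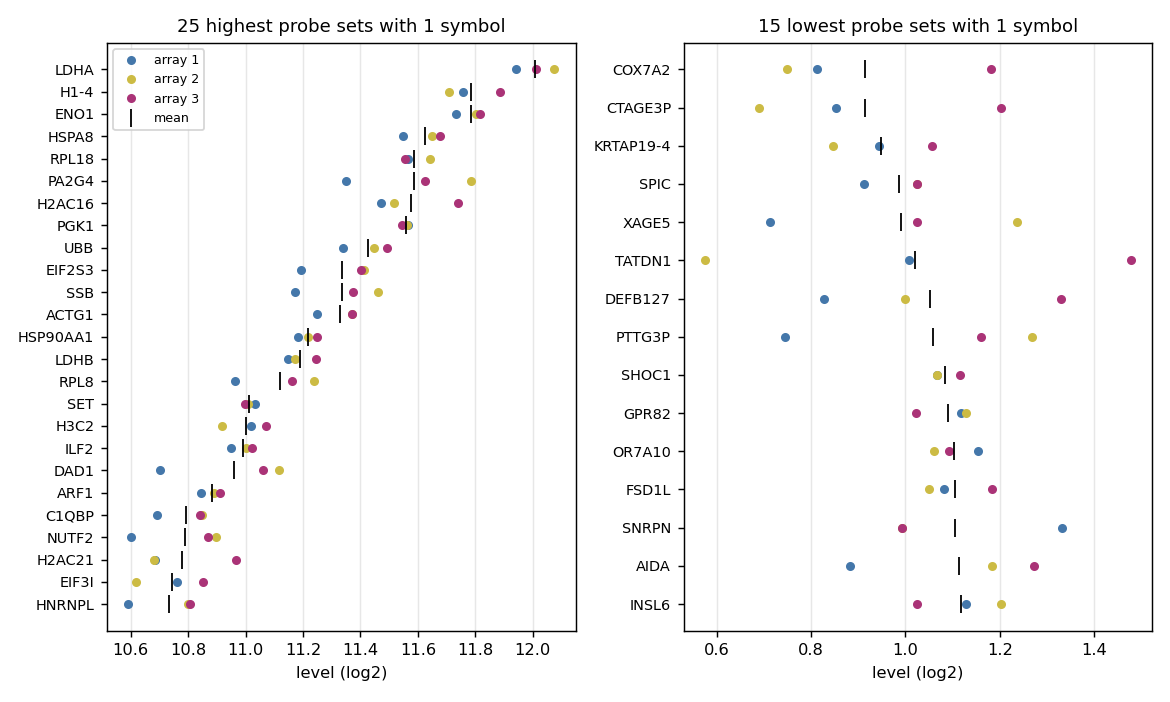
Level (x axis, log2) of the 25 highest and 15 lowest probe sets with 1 symbol on each of the 3 control arrays, with the mean as a black bar. The highest fall from 12.01 (LDHA) to 10.73 (HNRNPL), and most neighbours overlap.

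At the other end, the 15 lowest probe sets had means from 0.91 to 1.12, and all 14 neighbouring pairs overlapped, so they have no order among themselves. They held tissue-restricted genes: KRTAP19-4 of hair (0.94, 0.85 and 1.06), SPIC, a transcription factor of red pulp macrophages (0.91, 1.02 and 1.02), DEFB127, a beta-defensin of the epididymis (0.83, 1.0 and 1.33), the olfactory receptor OR7A10 (1.15, 1.06 and 1.09), the orphan receptor GPR82, SHOC1 of meiotic recombination, XAGE5 and INSL6. They also held the pseudogenes CTAGE3P and PTTG3P, and FSD1L. TATDN1, AIDA and SNRPN are in the same group although they are known from many tissues. TATDN1 had the largest spread there, with 1.01, 0.58 and 1.48.

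The lowest reading of all carried the symbol COX7A2, a subunit of cytochrome oxidase, with 0.81, 0.75 and 1.18. The other COX7A2 probe set read 7.43, 7.33 and 7.47, at percentile 84.6. Probe set numbers run along the chromosomes, and the low one lies among probe sets for genes on chromosome 4, while COX7A2 is on chromosome 6. In all, 32 of 14401 probe sets carried a symbol from another chromosome than at least 80% of their neighbours, counted over 10 on each side. Their median percentile was 23.1, with 13 low and 4 high, among the latter RPL14 (9.71, 9.30 and 9.01) and RPL4 (7.76, 8.21 and 7.85). The low ones included SUMO2 (1.20, 1.24 and 0.95), YBX1 (1.96, 1.52 and 1.48) and EIF2S2 (1.68, 2.51 and 1.32), genes used by most cells. These 5 are named here after their values were seen. Which transcript these probe sets measure was not tested.

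Promoter sequence differed along the scale of levels. RefSeq promoter windows on GRCh38.p14, from 250 bases before to 50 after a start site, were found for 11384 genes (79.99%), with the first listed window used where a gene has several. To show the range, the 250 bases before the start of 6 genes follow, 5′ to 3′ on the gene's strand, with each CG dinucleotide and each TATAAA within the 40 bases before the start in capitals. ENO1 and H1-4 stand for the highest levels, UCHL1 for a neuronal gene that was high, and CYP11A1 and SLC12A1 for adrenal and kidney genes that were low. OR6C1 is an olfactory receptor near the bottom of the scale, at percentile 0.107, where the median of that family was 9.34.
ENO1: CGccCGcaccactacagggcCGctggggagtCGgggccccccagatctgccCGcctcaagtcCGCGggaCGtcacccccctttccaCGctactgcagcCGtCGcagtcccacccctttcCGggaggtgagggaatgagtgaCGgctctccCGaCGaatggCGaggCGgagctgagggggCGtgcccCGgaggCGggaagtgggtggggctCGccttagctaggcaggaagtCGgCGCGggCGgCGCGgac
H1-4: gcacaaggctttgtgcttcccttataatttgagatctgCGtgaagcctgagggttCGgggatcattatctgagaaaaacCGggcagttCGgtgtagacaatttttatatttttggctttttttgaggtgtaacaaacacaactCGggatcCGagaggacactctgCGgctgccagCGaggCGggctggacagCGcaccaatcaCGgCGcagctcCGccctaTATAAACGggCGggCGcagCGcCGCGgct
UCHL1: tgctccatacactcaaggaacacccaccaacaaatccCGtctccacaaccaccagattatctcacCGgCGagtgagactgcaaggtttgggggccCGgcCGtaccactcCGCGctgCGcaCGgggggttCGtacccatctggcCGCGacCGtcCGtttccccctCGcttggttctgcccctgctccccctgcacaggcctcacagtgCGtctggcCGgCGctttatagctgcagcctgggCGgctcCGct
CYP11A1: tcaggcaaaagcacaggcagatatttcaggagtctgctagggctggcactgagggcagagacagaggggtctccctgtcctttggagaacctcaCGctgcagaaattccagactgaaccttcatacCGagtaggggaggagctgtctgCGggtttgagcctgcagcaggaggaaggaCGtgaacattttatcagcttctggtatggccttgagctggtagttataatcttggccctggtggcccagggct
SLC12A1: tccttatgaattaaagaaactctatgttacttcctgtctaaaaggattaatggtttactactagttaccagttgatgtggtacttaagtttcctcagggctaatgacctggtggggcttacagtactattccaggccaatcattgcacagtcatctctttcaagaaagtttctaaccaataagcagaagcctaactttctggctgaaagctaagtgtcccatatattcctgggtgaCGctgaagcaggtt
OR6C1: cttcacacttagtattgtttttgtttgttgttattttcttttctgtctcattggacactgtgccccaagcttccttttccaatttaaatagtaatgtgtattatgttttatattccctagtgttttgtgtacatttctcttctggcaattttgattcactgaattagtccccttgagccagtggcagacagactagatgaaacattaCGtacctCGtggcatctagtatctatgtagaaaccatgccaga
The windows are chr1:8878687-8878936 on the minus strand (ENO1), chr6:26156079-26156328 on the plus strand (H1-4), chr4:41256678-41256927 on the plus strand (UCHL1), chr15:74367647-74367896 on the minus strand (CYP11A1), chr15:48206052-48206301 on the plus strand (SLC12A1) and chr12:55314093-55314342 on the plus strand (OR6C1). They hold 27, 19, 20, 4, 1 and 2 CG dinucleotides in that order. The mean levels of the same 6 genes were 11.78, 11.78, 9.66, 3.75, 2.52 and 1.13. The TATAAA of H1-4, the TATA box motif, begins at position -29 from the start.

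Over all 11384 genes the median number of CG dinucleotides in the 300 bases was 4 in the lowest decile of levels, 14 in the third, 25 in the fifth and 27 in the highest. Deciles 6 to 10 differed little, with medians from 27 to 29. Across genes, Spearman's correlation of level and CG count was 0.446 (Pearson 0.445). All points share the same 3 arrays, so this is a description, and the base composition of the probes was not used here. Olfactory receptors had a median of 1, over 173 genes.

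The TATAAA motif, read on the gene's strand and lying between 40 and 16 bases before the start, was rarer in the upper deciles. It was in 6.23% of windows in the lowest decile, 2.81% in the fifth and 1.05% in the ninth, with 2.11% in the highest. Over the 11384 genes together it was in 3.15%, and over all 35114 RefSeq windows in 2.30%. Those 35114 count every window of a gene and are not limited to the ranked genes. Shares of all windows are therefore not an average of the deciles. At any place in the 300 bases and on either strand, TATAAA was in 22.1% of windows in the lowest decile. It was in 6.15% in the fifth and 6.06% in the highest, beside 11.5% of all windows. Histone genes had the motif before the start more often, in 26 of 52 windows (50%), beside 359 of 11384 (3.15%) of all genes. The GC box GGGCGG, on either strand, was in 24.5% of windows in the lowest decile, 67.9% in the fifth and 72.0% in the highest. Of all windows 45.0% had it. CCGGAAG, the core of sites for ETS factors, was on either strand in 4.83%, 13.4% and 21.9% of the same 3 deciles, beside 10.3% of all windows. A GC box holds a CG, as does the ETS core, so these counts overlap with the CG count. A match is a run of letters and does not show that a factor binds.

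**Figure D3:**
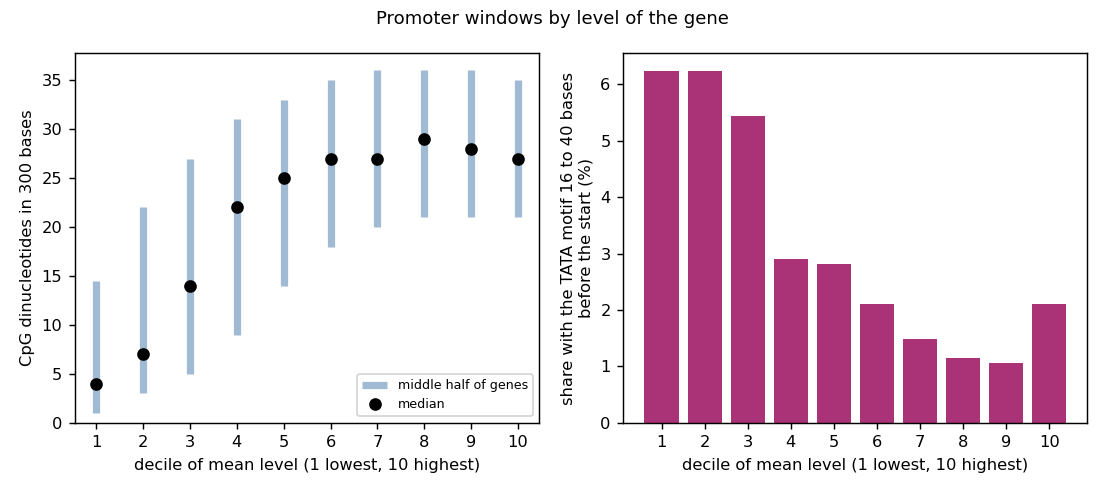
Promoter windows by decile of the mean level (x axis, 1 lowest, 10 highest) for 11384 genes: left, CpG dinucleotides per 300 bases (points are medians, bars the middle 50% of genes), right, the share with the TATA motif (percent). The median count was 4 in decile 1 and 27 in decile 10, and the TATA share was 6.23% in decile 1, 1.05% in decile 9 and 2.11% in decile 10.

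Kidney genes had a median below that of all genes, and the embryonic list had the highest median among them. The lists for 5 parts of the kidney held 94 genes, of which 76 had a probe set with 1 symbol, 6 only a probe set with several symbols and 12 were not analysed here. Over the 76, 3 were high (3.95%), 23 low (30.3%) and 38 above the olfactory range (50%). The shares of all genes were 23.2%, 23% and 66.2% in that order. The median percentile was 34.8 (34.4, 33.9 and 36.1 on arrays 1, 2 and 3), against 50.4 over all genes. None of the 19 measured defining genes was high. Other defining genes, SLC5A2, HNF4A, UMOD and SLC12A3 among them, were not analysed here. In a bulk sample, fewer cells that use a gene and less of its RNA per cell cannot be told apart.

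Genes of nephron progenitors and the ureteric bud stood highest of the kidney lists, with a median percentile of 49.1, 16 of 19 above the olfactory range, 2 high and 1 low. SALL1, a zinc finger factor of the nephron progenitor, led with 7.51, 7.72 and 7.69 (percentile 87.9), before JAG1, a Notch ligand, with 6.94, 7.02 and 7.14. SIX2, which keeps nephron progenitors from differentiating, read 6.90, 7.02 and 7.01 at percentile 76.7, on array 3 just under the upper quartile. GATA3, a factor of the ureteric bud, followed with 6.78, 6.84 and 6.95. PAX2 (6.0, 5.99 and 6.0), LHX1 (5.98, 5.98 and 5.97), PAX8 (5.88, 5.87 and 5.79) and WT1 (5.76, 5.73 and 5.91), factors of early nephron formation, lay close to each other, at percentiles 52.9 to 47.8. They were near the middle of all genes and above the olfactory limit on every array. The median percentiles of whole transcription factor families, PAX (45.9), SOX (52.4) and LIM homeobox (53.3), were also near the middle. RET, the receptor for GDNF in the ureteric bud, read 4.87, 4.87 and 4.95 and CDH6, a cadherin of early tubules, 3.86, 3.91 and 3.89.

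Podocyte genes had a median percentile of 29.6, with 1 high and 6 low of 13 measured of 16. The high one was ACTN4, an actin crosslinker (9.24, 9.43 and 9.50), and CD2AP, an adaptor of the slit diaphragm, read 6.97, 6.85 and 7.24, and both are used by many cell types. PODXL, the sialomucin podocalyxin, read 6.65, 6.75 and 6.89, at percentile 71.7. SYNPO read 5.97, 5.97 and 5.96, while NPHS1, the nephrin of the slit diaphragm, read 4.92, 5.10 and 4.75, above the olfactory limit on array 2 alone. The phosphatase PTPRO (2.36, 2.31 and 2.36) and PLA2R1 (2.84 on each array) closed the list. Genes of wide use thus led this list, and NPHS1 was its median member.

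Proximal tubule genes, the transporters and receptors that take up filtered solutes and proteins, had a median percentile of 28.6, with 0 high and 4 low of 18 measured of 24. Their low share, 22.2%, was near the 23% of all genes, while 23.2% of all genes were high. SLC34A1, the sodium phosphate cotransporter, was the highest at 6.13, 6.0 and 6.0 (percentile 54.0). SLC22A12, a urate transporter, read 5.73, 5.59 and 5.73, and SLC9A3, a sodium proton exchanger, 5.54, 5.54 and 5.52. The endocytic receptor LRP2 (megalin) read 5.41, 5.55 and 5.56, and its partner CUBN (cubilin) 3.02, 3.02 and 3.03. Megalin was thus in the middle range and cubilin low on every array. SLC22A6, an organic anion transporter, read 5.36 on each array, and SLC5A1, a sodium glucose cotransporter, was lowest with 3.04, 2.93 and 2.93.

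The loop of Henle and distal tubule had the lowest kidney median, 14.7, with 7 low and 0 high of 12 measured of 17. SLC12A1, the cotransporter that is the target of loop diuretics, read 2.57, 2.50 and 2.50, at percentile 5.64, and its partner in salt uptake KCNJ1 read 2.70, 2.69 and 2.51. CALB1, a calcium buffer, read 2.37, 2.40 and 2.54. These lie among the olfactory receptors, whose median level was 3.08. SLC8A1, a sodium calcium exchanger also of the heart, and CLDN19 were the highest, with 6.24, 6.23 and 6.49 and with 6.0, 6.56 and 6.32. KLK1 (5.18, 5.15 and 5.29) and BSND (4.53, 4.86 and 4.49) came next. PVALB varied most between arrays, with 2.03, 3.24 and 2.82.

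Collecting duct genes had a median percentile of 30.5, with 5 low and 0 high of 14 measured of 15. TFCP2L1, a transcription factor of the duct, read 6.08, 6.14 and 6.11, HSD11B2, which inactivates cortisol, 5.89, 5.72 and 5.87, and the water channel AQP3 5.64, 5.85 and 5.96. Among the defining genes, ATP6V1B1, a proton pump subunit of intercalated cells, read 5.85, 5.83 and 5.74, AQP2 5.55, 5.34 and 5.49, and FOXI1 5.37, 5.68 and 5.31. AVPR2, the vasopressin receptor, read 4.92, 4.95 and 4.62, and SCNN1A, the sodium channel subunit, 4.25, 4.25 and 4.30. None of these 5 reached the upper quartile, and SCNN1A was low on every array. ELF5 (3.29, 3.29 and 3.30) and ATP6V0D2 (2.07, 2.01 and 2.0) closed the list.

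**Figure D4:**
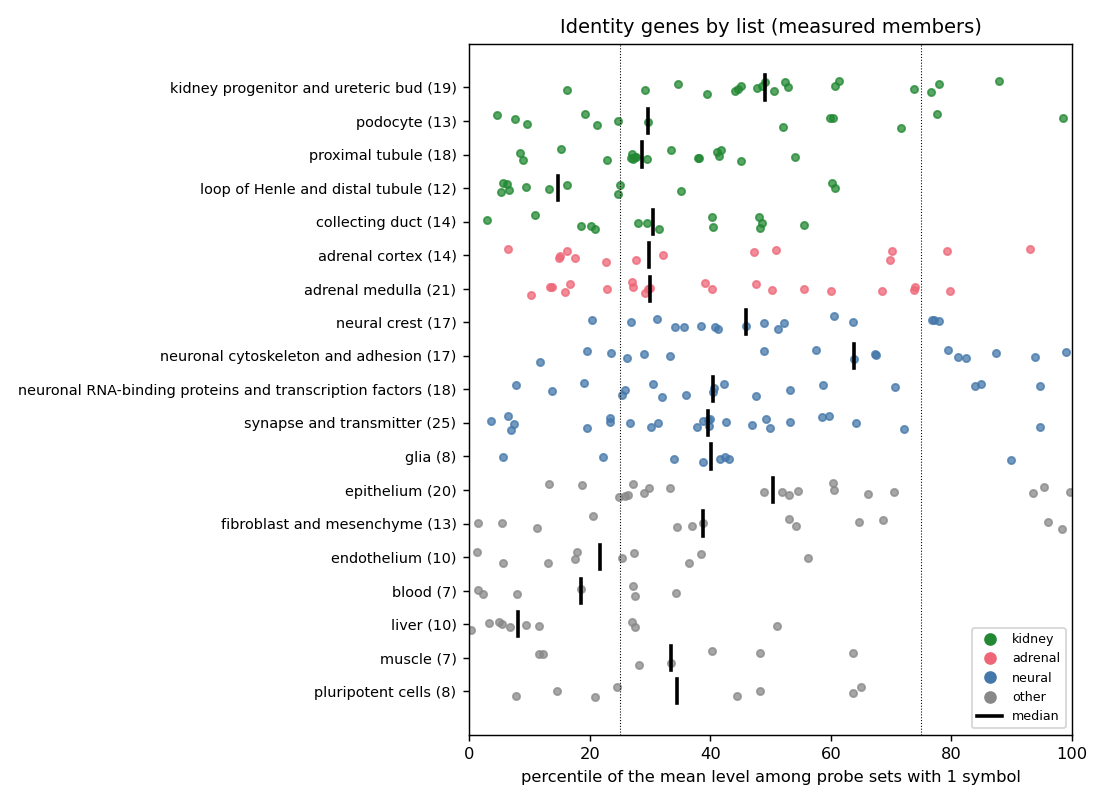
Percentile of the mean level (x axis) for every measured member of 19 identity lists (y axis, number measured in brackets), with list medians as black bars, dotted lines at the quartiles and vertical jitter for display only. Neuronal cytoskeleton and adhesion has the highest median, 63.9, and liver the lowest, 8.13.

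The adrenal lists together had a lower median than the kidney lists. Of 48 listed genes 35 were measured, with 3 high (8.57%), 12 low (34.3%) and 16 above the olfactory range (45.7%). The shares of all genes were 23.2%, 23% and 66.2% in that order. The median percentile was 30.02 (32.4, 30.9 and 29.7 by array). None of the 10 measured defining genes was high, and others, NR0B1, CYP21A2, HSD3B2, DBH and HAND2 among them, were not analysed here. In the cortex list, GATA6, a factor of the adrenal and of many other tissues, led with 8.08, 8.10 and 8.22 (percentile 93.1), followed by POR, the reductase that serves all microsomal cytochromes P450, with 6.96, 7.09 and 7.24. GATA4 (6.59, 6.71 and 6.80) and the lipoprotein receptor SCARB1 (6.67, 6.59 and 6.80) came next. NR5A1, the master regulator of steroid-making tissues, read 5.04, 5.04 and 5.09, at percentile 32.1.

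The steroid enzymes CYP17A1 and CYP11A1 were below NR5A1 on every array. CYP17A1, which was not low, read 4.83, 4.87 and 4.73, STAR, which brings cholesterol into mitochondria, 3.82, 3.71 and 3.79, and CYP11A1, which cuts its side chain, 3.82, 3.72 and 3.72. MC2R, the receptor for ACTH, was lowest with 2.49, 2.88 and 2.59 (percentile 6.38). STAR, CYP11A1 and MC2R were low on all 3 arrays. In the medulla list the median percentile was 30.02, with 1 high (4.76%) and 6 low (28.6%) of 21 measured of 26. The shares of all genes were 23.2% and 23%. The neuropeptide GAL was high (7.07, 7.08 and 7.22), and the factor INSM1 (6.80, 6.83 and 6.95) lay just below the upper quartile. The factor GATA2 (6.63 on each array) lay further below it. TH, the rate-limiting enzyme of catecholamine synthesis, read 6.08, 6.12 and 6.13, at percentile 55.5, above the olfactory limit on every array. PHOX2A (5.23, 5.49 and 5.51) was also above it, while SLC18A1 (5.18, 4.72 and 4.93), PNMT (4.42, 4.95 and 4.96) and CHGA (3.91, 3.94 and 3.94), of the secretory granule, were not on every array. CARTPT (3.53, 3.53 and 3.61) and SLC18A2 (3.19, 3.19 and 3.24) were the lowest.

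Neural genes had the highest median of the kidney, adrenal and neural lists, and their levels ran from 2.15 to 9.66. Of 98 listed genes 85 were measured, with 12 high, 16 low and 57 above the olfactory range. The median percentile was 41.3 (41.4, 41.0 and 41.3 by array), below the 50.4 of all genes. The shares of all genes were 23.2% high and 23% low, so the 14.1% high and 18.8% low of these lists lay below both. The 67.1% above the olfactory range was near the 66.2% of all genes. Among 20 measured defining genes, NEFL and TFAP2A were high, and others, TUBB3, MAPT, RBFOX3 and NEUROD1 among them, were not analysed here.

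The neuronal cytoskeleton and adhesion list had the highest median of the identity lists, 63.9, with 6 high and 3 low of 17. UCHL1, a ubiquitin hydrolase abundant in neurons, read 9.63, 9.63 and 9.73 (percentile 99.02). NEFL, the light neurofilament chain, read 8.15, 8.18 and 8.40 (percentile 93.9), and the adhesion molecule NCAM1 read 7.50, 7.57 and 7.72. MAP1B, a microtubule protein of growing axons, read 6.92, 7.38 and 7.54. All 4 were high on every array, and the values of UCHL1, NEFL and NCAM1 did not overlap, while those of NCAM1 and MAP1B did. The other filament chains were lower: INA read 6.44, 6.51 and 6.81, NEFM 5.46, 6.02 and 6.05, and the heavy chain NEFH 4.29, 4.29 and 4.02. Thus 1 of the 4 was high and NEFH was low on every array.

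The markers of maturing neurons in that list lay below INA and NEFM on every array. STMN2, a microtubule regulator of growth cones, read 4.82, 5.30 and 4.02, with a wide spread between arrays, MAP2 of dendrites 4.44, 4.57 and 4.56, and DCX, doublecortin of migrating neurons, 3.33, 3.40 and 3.40. In the list of RNA-binding proteins and transcription factors, RBFOX2, a splicing factor of many tissues, was highest with 8.29, 8.32 and 8.41, before POU3F2 (7.34, 7.49 and 7.47) and DLX2 (7.31, 7.30 and 7.50), factors of the developing brain. DLX1 read 6.72 on each array. The neuronal ELAVL3 (4.67, 4.69 and 4.67), RBFOX1 of neurons and muscle (3.57, 3.57 and 3.68) and the neuronal ELAVL4 (2.82, 2.82 and 2.94) were at percentiles 25.8, 13.7 and 7.72. RBFOX2 and RBFOX1, which bind the same RNA motif, thus stood at opposite ends of this list.

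Synapse genes had a median percentile of 39.7, with 1 high (4%) and 7 low (28%) of 25 measured of 29. The shares of all genes were 23.2% and 23%. The high one was ENO2, the enolase of neurons (8.34, 8.35 and 8.37), and SV2A of synaptic vesicles read 6.86, 6.64 and 6.85. CPLX1 (6.44, 6.55 and 6.38) and CPLX2 (6.27, 6.38 and 6.16), which clamp vesicle fusion, followed. SYP, synaptophysin, read 6.30, 5.68 and 6.06, SYT1 5.47, 5.47 and 5.77, SYN1 5.36, 5.30 and 5.36, and SNAP25 4.20 on each array. Of these, SV2A and the complexins were above the median of all genes on every array, SYT1 and SYN1 below it, and SNAP25 was low. The glutamate transporter SLC17A6 (2.65, 2.73 and 2.58) and the receptor GRIA2 (2.07, 2.30 and 2.07) were lowest.

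Neural crest genes, transcription factors and receptors of the cells that also give the adrenal medulla, had a median percentile of 45.9, with 1 high and 1 low of 17 measured of 18. MSX1 (6.80, 7.29 and 7.0) and TWIST1 (6.97, 7.13 and 6.89) had the highest means, but array 1 for MSX1 and array 3 for both lay below the upper quartile. TFAP2A read 6.93, 6.94 and 7.08 and was the high one. SOX9 (6.36, 6.45 and 6.51) came next. FOXD3 (5.94, 5.97 and 5.89), PAX3 (5.41, 5.56 and 5.52) and SOX10 (5.53, 5.42 and 5.49) lay in the middle. TFAP2B (4.80, 4.67 and 4.80) and ZIC1 (4.27, 4.21 and 4.34) closed the list. Of 8 glial genes, CNP, an enzyme of myelin that other cells also have, was high with 7.75, 7.77 and 7.93, OLIG2 (5.46, 5.59 and 5.71), GFAP (5.54, 5.61 and 5.54), OLIG1 and MBP (5.12, 5.10 and 5.21) were in the middle, and MOG and S100B (2.79, 2.24 and 2.46) were low.

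**Figure D5:**
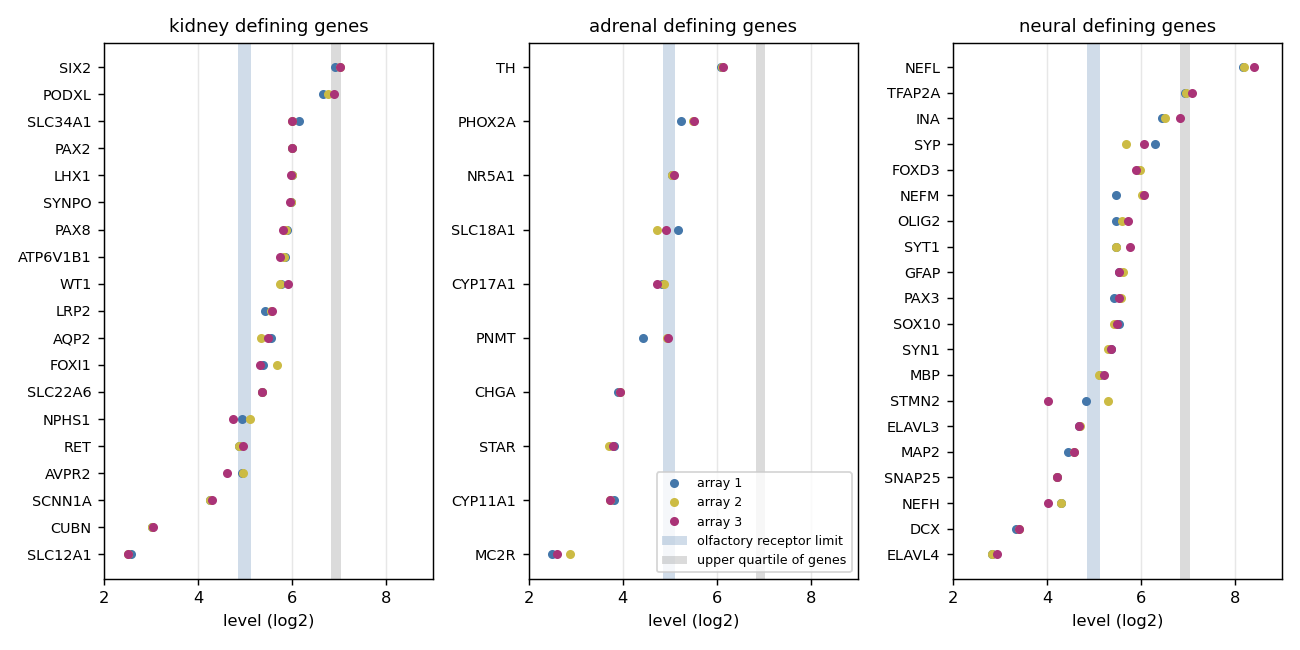
Level (x axis, log2) of the measured defining genes of kidney (19), adrenal (10) and neural (20) lists on each control array, with bands for the olfactory limits and the upper quartiles of the 3 arrays. NEFL is far above the upper quartile band, and 0 kidney and 0 adrenal genes pass it on all 3 arrays.

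Markers of other cell types were read in the same way, and only some members of these lists are named. The epithelial keratins KRT8 (10.26, 10.39 and 10.42) and KRT18 (8.51, 8.37 and 8.61) and the protease inhibitor SPINT2 (8.11, 8.17 and 8.33) were high, whereas GRHL2 (4.13, 4.13 and 4.12) and ESRP1 (3.48, 3.54 and 3.61), regulators of the epithelial state, were low. Of the mesenchymal list, VIM (9.24, 9.25 and 9.34) and the N-cadherin gene CDH2 (8.51, 8.51 and 8.69) were high, and LUM, DCN and FAP (1.73 on each array) low. The epithelial list had 3 high (15%) and 2 low (10%) of 20 with a median percentile of 50.4. The mesenchymal list had 2 high (15.4%) and 4 low (30.8%) of 13 with a median of 38.8. Of all genes 23.2% were high and 23% low. Endothelial genes had a median percentile of 21.6, blood genes 18.6, liver genes 8.13, muscle genes 33.5 and genes of pluripotent cells 34.5, each with 0 high. PTPRC (1.71, 1.71 and 1.73) of blood cells, ALB (2.47, 2.49 and 2.47) of liver and PECAM1 (3.46, 3.49 and 3.59) of endothelium were low on all arrays. LIN28B (6.54, 6.39 and 6.55) and DNMT3B (6.28, 6.47 and 6.57) were the highest of the pluripotency list.

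The lists of gene families were 65, each read against the whole. All counts of high and low members in them stand beside the 23.2% high and 23% low of all genes. In 13 the median percentile was above 75 and in 13 below 25. The latter include olfactory receptors (9.34), beta-defensins (10.8), taste receptors (11.7) and keratin-associated proteins (22.3), and the former a list of reference genes (88.0). Lists differ in size, down to 1 measured gene. The highest were the chaperonin CCT, which folds actin and tubulin (98.8, 7 of 8 high), and the MCM helicase of replication (98.0, 5 of 5 high). CCT7 read 10.64, 10.55 and 10.66 and CCT8 7.07, 7.13 and 7.14, while CCT6B, a testis form, read 2.12, 2.13 and 2.46. The ubiquitous form CCT6A, at 8.61, 8.41 and 8.66, was above CCT6B on every array. The MCM genes lay close together, from MCM2 (9.25, 9.22 and 9.47) over MCM3, MCM4 and MCM5 to MCM6 (8.73, 8.61 and 8.78).

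Translation families followed. Initiation factors had a median of 92.3, with 20 high and 1 low of 31, led by EIF2S3 (11.19, 11.41 and 11.40), EIF3I (10.76, 10.62 and 10.85) and EIF3H (10.00, 10.09 and 10.08). The low one was EIF2S2, whose probe set is among those on another chromosome. Cytosolic ribosomal proteins had a median of 90.4, with 16 high of 26. Another 21 had only probe sets with several symbols and 32 were not analysed here, so 26 of 79 stand for the family. RPL11 (10.13, 10.17 and 10.44) and RPS6 (9.74, 9.97 and 9.94) followed RPL18 and RPL8, and RPS29 (4.20, 4.20 and 4.13), again on another chromosome, was low. RPL14 and RPL4 were high, also by probe sets on another chromosome, and the other RPL14 probe set read 6.71, 6.38 and 6.57. Mitochondrial ribosomal proteins had a median of 79.1, with 36 high and 3 low of 65, from MRPL42 (9.30, 9.40 and 9.45) to MRPL13 (3.79, 3.86 and 4.0). RPL36AL (9.20, 9.55 and 9.54) was high among the paralogs, and the testis form RPL10L (1.54, 1.79 and 1.64) low. EEF1A2, the elongation factor form of neurons and muscle, read 8.61, 8.51 and 8.77.

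In metabolism, 13 of 25 measured glycolysis isozymes were high and 5 low, with a median of 79.1. Both lactate dehydrogenase chains were among the top 25, LDHA above LDHB (11.15, 11.17 and 11.24) on every array, and the sperm form PGK2 (2.56, 3.11 and 2.65) was low. The triose phosphate isomerase gene TPI1 read only 2.91, 2.86 and 2.72. Other isozymes, GAPDH and PGAM1 among them, were not analysed here. Creatine kinase CKB of brain read 10.20, 10.24 and 10.39 and CKM of muscle 4.83, 4.83 and 4.86. The ubiquitous COX6B1 (9.54, 9.96 and 9.85) and COX8A (8.34, 8.67 and 8.60) of cytochrome oxidase were above the testis forms COX6B2 (4.73, 4.75 and 4.74) and COX8C (4.54, 4.41 and 4.54), and COX4I1 (6.19, 6.23 and 6.27) above COX4I2 (5.03, 5.20 and 5.22). Of 35 cytochrome P450 genes 1 was high, CYP2R1, a vitamin D hydroxylase (7.14, 7.41 and 7.53). Another 11 were low (31.4%, beside 23% of all genes), with CYP7A1 lowest (2.27, 2.27 and 2.26). SLC25A4, an adenine nucleotide translocator, read 7.86, 8.0 and 7.83 and the testis form SLC25A31 2.15, 2.15 and 2.17.

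Among folding and turnover genes, the proteasome had a median of 88.4, with 26 high and 1 low of 36. PSMB2 (10.17, 10.27 and 10.37) and PSMB4 (9.96, 9.89 and 10.04) led, and the low one was PSMB8 (4.03, 4.45 and 4.09), a subunit of the immunoproteasome. The HSP70 and HSP90 families had a median of 81.1, with 7 high of 13. HSPA8 and HSP90AA1 (11.18, 11.22 and 11.25) were followed by HSPA5 of the endoplasmic reticulum (9.24, 9.23 and 9.37) and HSPA4 (8.83, 8.57 and 8.90), and the testis form HSPA1L (3.95, 3.81 and 3.97) was low. Of the 14-3-3 genes, YWHAB (8.77, 8.87 and 8.98) was highest and YWHAZ (5.81, 5.85 and 5.92) lowest.

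Histone genes ran over nearly the whole scale. Of 57, 27 were high and 11 low, with a median of 75.9 and levels from 1.46 to 11.78. By type, 10 of 14 H2A genes were high and 0 low (median 95.1), 6 of 10 H3 genes were high (median 83.9), and 4 of 13 H2B genes were high with 4 low (median 49.0). H1 and H4 genes lay between, with medians of 63.3 and 62.4. H2AC16, H3C2 (11.02, 10.92 and 11.07) and H2AC21 followed H1-4. The lowest were H2BC10 (1.82, 2.30 and 1.61) and H2BC3 (1.70, 1.80 and 0.86). Near-identical copies may share signal, so the split between such histone genes is uncertain.

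The cell cycle families were high in part. Of 18 cyclins 12 were high, led by the mitotic CCNB1 (9.61, 9.58 and 9.62), CCNI (9.29, 9.23 and 9.36) and CCND2 (8.78, 9.15 and 9.30), and the germ line forms CCNB3 (3.40, 3.22 and 3.47) and CCNA1 (3.42, 3.41 and 3.20) were low. Of 16 cyclin-dependent kinases 7 were high. Among these, CDK16 read 9.57, 9.57 and 9.75 and CDK2 8.29, 8.34 and 8.54. CDK1, the mitotic kinase, was not high, with 6.73, 6.68 and 6.92, below the upper quartile of each array, and CDK15 was low (4.34, 4.34 and 4.42). Among E2F genes and their partners, TFDP2 (8.20, 8.12 and 8.26), E2F4 (7.19, 7.14 and 7.44) and E2F1 (7.11, 7.11 and 7.32) were high and TFDP3 low.

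For the cytoskeleton, KRT8 and KRT18 were the only high ones of 29 keratins, of which 19 were low down to KRT26 (1.55, 1.56 and 1.56). Of 14 other intermediate filament genes VIM, NEFL, LMNB2 (7.84, 8.04 and 8.11) and LMNA (7.02, 7.03 and 7.09) were high. Among tubulins TUBB (10.48, 10.38 and 10.52), TUBG1 (8.77, 8.84 and 8.98), TUBB2B, a neuronal form (8.90, 8.59 and 8.95), and TUBB6 were high, and TUBA1B, the main alpha tubulin of growing cells, read 1.89, 2.02 and 1.61. ACTG1 and ACTB (8.23, 7.99 and 8.23) were above the muscle actins ACTA1 (6.27, 6.58 and 6.45), ACTG2 and ACTC1 (3.43 on each array). TPI1 and TUBA1B, both widely used genes, were thus read as low in this table.

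Transcription factor families of development lay near the middle, with few members at either end. Of 22 HOX genes 3 were high, HOXB9 (7.97, 8.01 and 8.26), HOXD13 (7.75, 7.45 and 7.65) and HOXB2 (6.93, 6.98 and 7.17), and HOXC11 and HOXD12 low, with a median of 46.4. HOXA2 (5.01, 4.43 and 4.73) alone stood for the HOXA cluster. The 9 PAX genes had 0 high and 0 low, from PAX6 (6.40, 6.32 and 6.62) to PAX5 (5.06, 5.16 and 5.06). Of the SOX genes SOX4 (8.22, 8.26 and 8.21) and SOX11 (7.56, 7.73 and 7.56) were high, of the GATA genes GATA6, and, of the family with EYA genes, SIX4 (7.72, 7.72 and 7.90). Of 33 forkhead genes 6 were high, led by FOXK2 (8.58, 8.55 and 8.68), FOXM1 of the cell cycle (7.70, 7.66 and 7.94) and FOXD1 of renal stroma (7.25, 7.08 and 7.39). The 298 ZNF genes had a median of 41.2, with 24 high (8.05%) and 70 low (23.5%). Their low share was near the 23% of all genes, and their high share below the 23.2%. Of LIM homeobox genes 0 were high.

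Among surface and secreted families, most members of some were low. Of 21 cadherins CDH2 was the high one and 11 were low, and 14 of 21 protocadherins were low with PCDH10 highest (6.75, 6.77 and 7.02). Voltage-gated sodium channels had 7 low of 8, from SCN9A (4.61, 4.53 and 4.84) to SCN7A (1.81, 1.88 and 1.82). Of 81 potassium channel genes 1 was high, KCNMB4 (7.39, 7.49 and 7.53), and 26 (32.1%) were low, beside 23% of all genes. Toll-like receptors had the lowest median of all families, 7.25, with 9 low of 9, and TLR5 (4.13, 4.07 and 4.32) was their highest. Interleukins (21 low of 32), chemokines (20 low of 31) and cancer-testis antigens (11 low of 16) had 0 high. HLA-E (7.23, 7.23 and 7.31) was the high one of 9 HLA genes, of which 1 was low.

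Several ligand and receptor families stood nearer the middle. Frizzled receptors were all above the olfactory range, 10 of 10, led by FZD8 (6.99, 7.08 and 7.08), and their Wnt ligands by WNT6 (7.09, 7.11 and 7.09). As 66.2% of all genes passed that call, such a count in a small family says little. NOTCH3 (7.32, 7.60 and 7.70) and its ligand JAG1 were high, and ERBB2 (6.95, 7.12 and 7.14) was above EGFR (6.01, 5.92 and 6.20) on every array. All 4 FGF receptors, beside 66.2% of all genes, were above the olfactory range, led by FGFR3 (6.90, 6.97 and 7.02). In the insulin and IGF system the fetal RNA-binding protein IGF2BP1 (8.65, 9.01 and 9.24), IGFBP2 (7.46, 7.74 and 7.84), IGF1R (7.23, 7.57 and 7.74) and IGF2BP2 were high, and the ligand IGF1 read 4.60, 4.68 and 4.44. Another IGF2BP2 probe set, on another chromosome than its neighbours, read 3.42, 3.81 and 3.70. Of G protein subunits GNB1 (10.74, 10.60 and 10.74), GNAS (9.72, 9.71 and 9.80) and GNAQ (9.10, 9.39 and 9.53) were highest. ITGB1 (8.29, 8.24 and 8.34) and ITGA5 (7.12, 7.31 and 7.43) were the high ones of 21 integrins, and of the collagens COL4A5 (8.16, 8.32 and 8.32) was highest. Claudins and connexins stood lower, with median percentiles of 35.4 and 23.5. CLDN12 (7.84, 7.67 and 8.06) was the high one of 18 claudins, of which 6 (33.3%) were low, beside 23% of all genes. GJC1 (7.36, 7.87 and 7.91) was the high one of 15 connexins, of which 7 were low. ABCE1 (8.38, 8.11 and 8.45), a factor of ribosome recycling, was the highest of 39 ABC family genes, of which 17 were low. Aquaporins had 0 high, and the sodium pump subunits ATP1B3 (7.61, 7.55 and 7.70) and ATP1B1 (7.0, 7.03 and 7.12) were the highest of 4.

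The genes targeted elsewhere in the study could be read at their level in control cells. CCAR2 read 7.67, 7.67 and 7.84, at percentile 89.0, and was high. ZNF326 read 5.25, 5.64 and 5.76, at percentile 42.1, in the middle on every array. SIRT1, a deacetylase that CCAR2 binds and inhibits, read 7.47, 7.33 and 7.55, at percentile 85.2.

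The spread between the control arrays was small beside the range of levels, and some genes stood out. Among probe sets above the upper quartile of the mean, the 10 with the largest SD were H2BC26 (7.63, 6.73 and 7.94), RPS25 (7.67, 6.76 and 6.68, on another chromosome than its neighbours), DYNC1H1 of the dynein motor (7.97, 8.89 and 8.89), H2BC4 (8.12, 7.67 and 8.65), NEDD8 (7.68, 8.16 and 8.59), ZNF460, ATL3, MYCN (6.63, 7.29 and 7.43), CISD1 and KMT2A (6.53, 7.15 and 7.34). Another RPS25 probe set had a mean of 9.87 (percentile 99.3), and another NEDD8 probe set one of 5.19. Array 3 was highest in 8 of the 10, and array 1 lowest in 6. The histone genes H2BC26 and H2BC4 were lowest on array 2 and highest on array 3. Array 3 also had the highest median level, 5.96, and its part in these spreads was not tested. Exactly the same value on 2 or 3 arrays, as for CCAR2, occurred in 16.7% of probe sets, from 31.2% in the lowest decile of levels to 5.26% in the highest, and on all 3 arrays in 440. How the repeats arose was not tested.

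Probe sets for long non-coding RNAs lay lower than those for protein-coding genes, with median percentiles of 20.1 (317 probe sets) and 51.4 (13929). Of the long non-coding RNAs, 2 had means with every array above the upper quartile (0.631%), and 58.4% were low. Among the 5171 probe sets without a symbol, 47 had a mean above that of LDHA, up to 13.22. They are unnamed here.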

How the data were processed

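The deposited values are log2 expression values, 1 per probe set and array, which the authors obtained by RMA, a method that corrects background, normalizes arrays and summarises probes, per the submitters' processing notes. Those notes name hg18, to which the probe annotation refers, and no RMA version is given in the sources used here. Whether all 9 arrays were normalized together is not given in the sources used here. Base 2 is taken from RMA's usual output and fits the values seen. The files hold no detection or background values, and with 3 arrays each mean is known only to within their spread.

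From these values the mean, SD and rank over the siCTR arrays were computed in Python 3.11.15 with pandas 2.3.3 and numpy 2.4.6, without filter or rescaling. Probe sets were named through the platform annotation (2408 carried several symbols and 5171 none). A gene table matched 14404 identifiers and changed 0 symbols. The ranking was tested on simulated data. The members and lists were chosen with earlier results of these data known. A rule set which genes could be named: the 25 highest and 15 lowest probe sets, and the 10 with the largest SD above the upper quartile. In each identity list it took the defining genes and the 4 highest and 2 lowest members. In each family it took the 4 highest and 2 lowest or, up to 16 measured members, all. It also took CCAR2, ZNF326 and SIRT1. Not every gene under this rule is named above. For the lists of other cell types and for many families only some are, and those names are a selection. Other names were chosen after their values were seen. The alternatives were quantile normalization of the 3 arrays, a mean on the linear scale, the mean over the probe sets of a symbol, ranks among all probe sets, other limits of the calls, other promoter windows and leaving out each array. Nothing in the labels beyond the word independent says whether the 3 experiments were separate cultures.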

Additional observations from a re-analysis of the deposited data

How the results depend on the processing

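No paired analysis was possible because the arrays are 1 group and no result comes from a test. The median percentiles of the kidney, adrenal and neural lists were 34.8, 30.02 and 41.3. When ranks were taken among all probe sets they became 40.4, 36.1 and 46.0, and with the mean over the probe sets of a symbol the neural median was 40.8. Leaving out each array in turn gave ranges of 34.0 to 35.3 for kidney, 29.8 to 32.1 for adrenal and 41.3 to 41.8 for neural lists, so the order of the 3 was the same in each of these runs. Of the 25 highest probe sets, 23 to 25 remained under quantile normalization, the linear mean, without the probe sets on another chromosome (an alternative chosen after seeing the data) and without each array. With deciles in place of quartiles 1316 genes were high and 1273 low, where 3303 and 3276 were reported. With keratin-associated proteins, taste receptors and beta-defensins as the reference in place of olfactory receptors, 4436 genes in place of 9418 lay above the reference, among them 7 of 76 kidney, 8 of 35 adrenal and 16 of 85 neural genes, so that call rests on its reference. Without each array the counts were 3399 to 3412 high, 3348 to 3367 low and 9429 to 9964 above the olfactory range. Quantile normalization lowered the median SD from 0.112 to 0.0856. Spearman's correlation of level and CG count was 0.475 with the mean over all windows of a gene (chosen after seeing the data) and 0.442 to 0.448 without each array. Of 84 lists, 34 medians moved by more than 5 points when ranked among all probe sets (median shift 4.47, largest 6.60), and 0 did so without any of the arrays. With the mean over the probe sets of a symbol 2 did so, cytochrome oxidase isoforms from 58.5 to 42.3 and the insulin and IGF system from 67.3 to 57.8. Low levels have no detection value, so absence cannot be read from them.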
